A study of Homo sapiens with 6 samples.

Results

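Long noncoding and antisense RNAs were compared between a pair of human lung adenocarcinoma lines, CL1-0 and CL1-5. The members were the array probe sets that carry exactly 1 gene symbol in the platform annotation, where that symbol is a LINC number, ends in -AS and a number, has the form MIR...HG, or is MALAT1, NEAT1, H19, MEG3, PVT1 or HOTAIR. They also needed a mean signal above 50 over the 6 arrays. This left 305 probe sets of 237 genes, out of 2247 probe sets of 1660 genes with such a symbol and 54675 probe sets in all. The members were 184 antisense probe sets (154 genes), 98 intergenic LINC probe sets (74 genes), 11 probe sets of microRNA host RNAs (8 genes) and 12 probe sets of MALAT1. The signal chose them, so their brightness is a description and not a result. Just outside the limit lay LINC02593 at a mean signal of 49.6, LYRM4-AS1 at 49.6 and LINC01511 at 49.98. Just inside it lay LINC01560 at 50.2, MIF-AS1 at 50.2 and LINC01547 at 50.4.

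Total RNA of each line was hybridised to Affymetrix arrays of 1 colour, 6 in all, with 3 biological repeats a line. Both lines derive from the parental line CL1. The labels call CL1-0 poorly invasive and CL1-5 highly invasive, and both were grown untreated in RPMI medium with fetal bovine serum and penicillin/streptomycin. Every difference below is therefore between 1 pair of related lines, and the labels name no transgene or drug in either. In a bulk culture, fewer cells with an RNA and less of it per cell cannot be told apart. Values are the deposited intensities, called signal here. Each fold change is CL1-5 over CL1-0 on the scale log2(signal + 6.85), where the constant is the 10th percentile of all values and shrinks the changes of dim probe sets. limma's moderated test was run over 33777 probe sets, and a probe set was called where its p, adjusted by Benjamini and Hochberg's method, was under 0.05.

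Most long noncoding RNAs are made by RNA polymerase II and spliced, but code for no known protein, and many stay in the nucleus. Antisense RNAs are transcribed from the strand opposite to a named protein gene, often from a start inside that gene or from a start just upstream that fires away from it. MicroRNA host RNAs carry microRNA hairpins in their introns or exons, and MALAT1 is an abundant nuclear RNA first described in lung cancer that had spread.

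Facts of the whole series were as follows. Array medians ran from 30.2 to 30.9, and the 40th percentile of an array, used here in place of a background level, from 19.5 to 20.3. Of the 11 lung adenocarcinoma markers with a probe set of 1 symbol, 9 were above the 40th percentile on all 6 arrays, which is no detection call. NKX2-1, which defines the lung lineage, reached only 24.0 to 30.5. SFTPB at 35.1 to 39.6, CDH1 at 33.5 to 45.7 and NAPSA at 34.7 to 54.6 were not far above the array medians either. KRT19 was above the 40th percentile on 0 arrays. EPCAM was above it only on the 3 CL1-0 arrays. The summed signal of the marker list was 575 to 616 in CL1-0 and 4846 to 5669 in CL1-5, mostly KRT18. Of the markers of other cell types, PTPRC, CD14 and LYZ of leukocytes, CDH5 of endothelium, and DCN, LUM and PDGFRA of fibroblasts were above it on 0 arrays. CD3E of leukocytes, PECAM1 of endothelium, and COL1A1 and COL1A2 of fibroblasts were above it on all 6, VWF of endothelium on 4 and COL3A1 of fibroblasts on 1. PECAM1 ran from 43.0 to 55.0 in CL1-0 and from 111 to 119.6 in CL1-5, and the part of these markers in the results was not tested. Summed signals in CL1-0 and CL1-5 were 60.2 to 62.5 and 53.8 to 60.2 for leukocyte markers, 67.7 to 85.5 and 140.2 to 154 for endothelial markers, and 109.6 to 121 and 95.3 to 104 for fibroblast markers. Repeat 3 of both lines stood apart. The 3′ to 5′ signal ratio of ACTB, a measure of RNA quality, was 1.17 (log2) in CL1-0 repeat 3 and 0.91 in CL1-5 repeat 3, against 0.31 to 0.53 on the other 4 arrays.

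All 305 member probe sets passed the filter on low values. Of them, 53 (17.4%) were higher in CL1-5, 103 (33.8%) were lower and 149 did not pass the threshold. Among all 33777 probe sets tested, 19.8% were higher and 24.6% lower, 44.4% in all, against 51.1% of the members. Among the 19928 named probe sets with a mean signal above 50, which were cut on brightness as the members were, 24.5% were higher and 29.9% lower, 54.4% in all. The members' share of calls was thus close to that of equally cut probe sets, with fewer increases and more decreases, and this difference in shares was not tested. The median log2 fold change was −0.15 over the members, −0.04 over all probe sets tested and −0.06 over the named probe sets above 50. Changes of at least 2-fold that passed the threshold numbered 26 increases and 36 decreases, 8.52% and 11.8% of the members, 20.3% in all. Among all probe sets tested these shares were 7.58% and 6.91%, 14.5% in all, and among the 19928 named ones above 50 there were 1994 such increases and 1791 such decreases, 18.99% in all. The members' share of such changes was thus close to that of probe sets cut on brightness in the same way. The signals of the lines did not overlap for 182 members (59.7%, against 53.5% and 63.5%).

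The limit on the 6-array mean ties a part of these counts to the choice of members. Of the 305 probe sets, 229 had a mean above 50 in both lines, and among these 31 were higher in CL1-5 and 63 lower. No share over all probe sets under this same cut was taken, so these counts are a description as well. A further 50 had a mean above 50 in CL1-0 alone, of which 40 were lower in CL1-5, and 26 in CL1-5 alone, of which 22 were higher. Members of the last 2 kinds had to differ in that direction to some degree, so their values are a description and their counts support nothing. With 1 probe set taken per gene, 45 of the 237 genes were higher, 80 lower and 112 did not pass, 52.7% called. Where the test itself held 1 probe set per gene, 54.4% of the member genes and 51.7% of all 14828 genes were called. Without repeat 3 of either line, a choice made after seeing the data, 59 members were higher and 116 lower, 57.4% in all against 50.9% of all probe sets tested in that way, and 148 of the 156 calls were shared. For neither of these tests was a share taken under the cut on brightness that the members had passed. The shares therefore do not show that members were called more often than equally bright genes or probe sets. With the repeat number as a block, 64.6% of the members were called, against 58.4% of all probe sets tested and 71.8% of the named ones above 50.

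**Figure D1:**
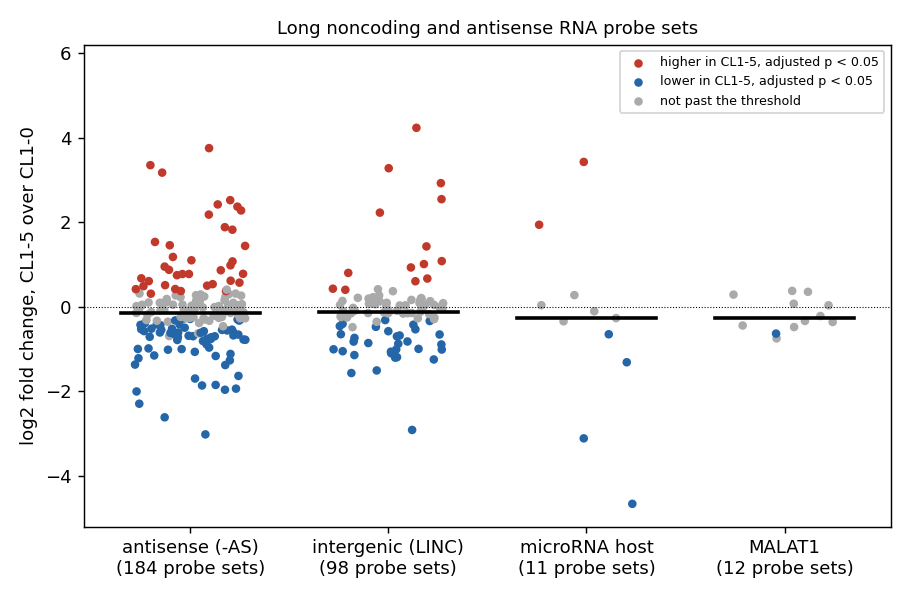
Log2 fold change (CL1-5 over CL1-0) of each of the 305 member probe sets, by class; 1 point is 1 probe set, the black line is the class median, and red and blue points passed limma's adjusted p of 0.05. Increases reach 4.23 (LINC00960) and decreases −4.66 (MIR1915HG), while 11 of the 12 MALAT1 probe sets stay under the threshold.

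Among intergenic RNAs, 14 probe sets were higher in CL1-5, 32 lower and 52 not past the threshold, so that 46.9% were called against 44.4% of all probe sets tested and 54.4% of the named ones above 50. LINC00960, an RNA of chromosome 3 with no established role known here, had the largest increase of any member. Its signal was 18.3, 16.1 and 16.1 on the CL1-0 arrays and 452, 378 and 489.5 on the CL1-5 arrays. The mean of LINC00960 was above 50 in CL1-5 alone, so a member of this kind had to rise to some degree. All CL1-0 arrays lay under the 40th percentile, so the difference is given as at least 21.9-fold (fitted log2 fold change 4.23 ± 0.12 SE, adjusted p = 1.45e-07). A second member probe set of the gene rose too, by 2.23 on the log2 scale. Here and below, such a bound sets the bright line's mean log2 signal against the 40th percentile of the dim line's arrays.

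LINC00189 gave 14.7, 17.7 and 15.1 in CL1-0 and 237, 245 and 165 in CL1-5, at least 10.7-fold higher (adjusted p = 2.16e-06). LINC01806 gave 14.1, 14.6 and 14.7 against 149, 175 and 142, at least 7.77-fold higher (adjusted p = 4.94e-07). LINC00648 gave 13.3, 7.77 and 8.99 against 92.2, 97.8 and 82.6, at least 4.54-fold higher (adjusted p = 3.73e-06). In each of these RNAs every CL1-0 array was under the 40th percentile and every CL1-5 array at 82.6 or more, so the lines were far from overlapping.

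LINC00472, which has been studied as a growth-restraining RNA in several cancers, had the largest intergenic decrease. Its signal was 87.2, 86.3 and 113 in CL1-0 and 6.71, 7.10 and 6.15 in CL1-5. The CL1-5 arrays were all close to 6.85, the 10th percentile of all values, and the decrease was at least 4.76-fold (fitted −2.91 ± 0.12, adjusted p = 8.50e-07). LINC00513, which lies beside MKLN1, fell from 147 ± 26.9 to 44.4 ± 1.67 (SD, n = 3), a log2 fold change of −1.57 (adjusted p = 5.49e-05). LINC00205 and LINC00674, picked after their values were seen, each fell on all 3 of their member probe sets, by 0.82 to 1.51 and by 0.74 to 1.20 on the log2 scale.

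**Figure D2:**
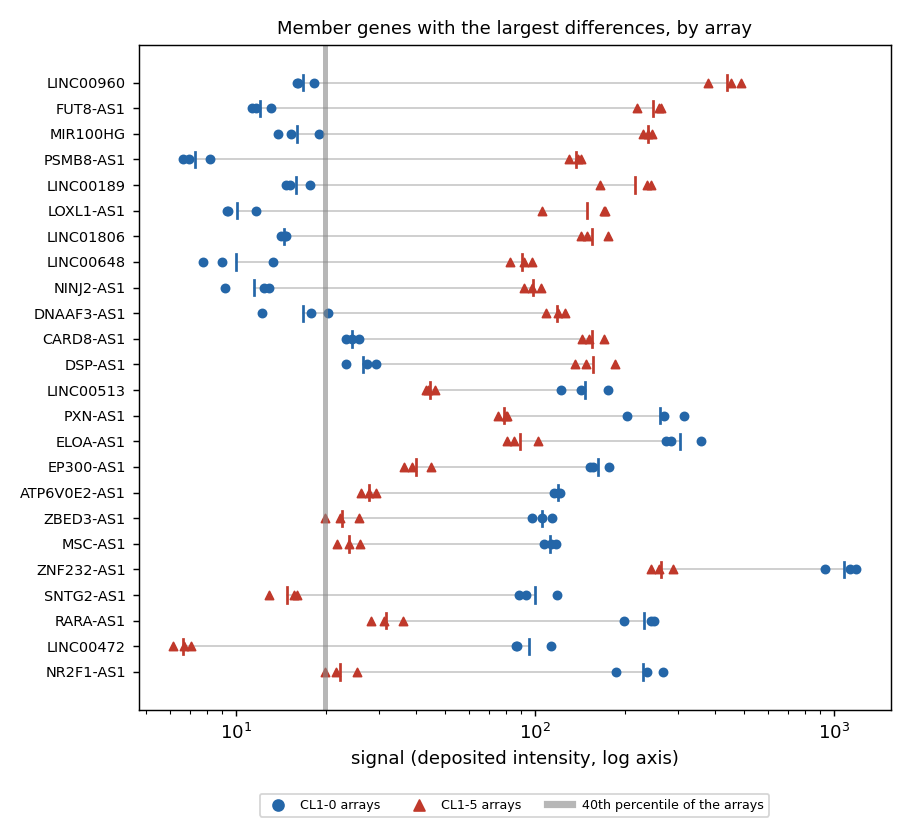
Signal (log axis) of the 12 largest increases and 12 largest decreases among member genes, on each of the 3 CL1-0 arrays (blue circles) and 3 CL1-5 arrays (red triangles); vertical ticks are line means and the grey band spans the 40th percentiles of the arrays, 19.5 to 20.3. In none of the 24 genes do the lines overlap, which the rule for naming them required, and 9 of the 12 increases start from CL1-0 arrays that all lie at or under the 40th percentile. All genes but ZNF232-AS1, ELOA-AS1 and PXN-AS1 had a mean above 50 in the brighter line only, so the choice of members required some difference.

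Of the 11 microRNA host probe sets, 2 were higher, 4 lower and 5 not past the threshold, 54.5% called and close to the 54.4% of the named probe sets above 50. The microRNAs themselves were not measured on these probe sets, which read the longer host transcripts. The hosts that changed most carry the following mature microRNAs in RefSeq (GRCh38.p14), printed because they name what each host could yield; capitals mark the seed, bases 2 to 8, which pairs with targets. The 5 seeds all differ.
miR-100-5p: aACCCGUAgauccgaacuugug
let-7a-5p: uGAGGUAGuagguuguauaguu
miR-125b-5p: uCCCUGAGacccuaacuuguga
miR-210-3p: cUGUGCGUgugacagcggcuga
miR-1915-3p: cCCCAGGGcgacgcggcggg
The first 3 lie within MIR100HG, the fourth within MIR210HG and the fifth within MIR1915HG, each on the strand of its host.

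MIR100HG, the host of the miR-100, let-7a-2 and miR-125b-1 hairpins, rose in CL1-5. Its signal was 13.8, 15.3 and 18.98 in CL1-0 and 229, 239 and 246 in CL1-5, at least 11.9-fold higher (adjusted p = 2.86e-07). Its nearest protein gene on the right, UBASH3B, a phosphatase gene, went the other way, from a mean of 102 to 17.5 (at least 5.07-fold lower). MIR210HG hosts miR-210, a microRNA known for its induction in low oxygen. It was picked after its values were seen and gave 12.1, 15.5 and 25.5 in CL1-0 against 73.7, 89.2 and 93.1 in CL1-5 (log2 fold change 1.94 ± 0.20, adjusted p = 0.000119).

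MIR1915HG, also picked after its values were seen, fell on all 3 of its member probe sets, but by unequal amounts. The probe set with the largest decrease of any member gave 376, 343 and 429.7 in CL1-0 and 8.48, 8.58 and 8.39 in CL1-5, at least 19.1-fold lower (fitted −4.66, adjusted p = 6.22e-08). Another fell from 306 ± 32.03 to 29.5 ± 5.01 (log2 fold change −3.11), and the third from 301 ± 16.0 to 117 ± 10.7 (−1.31 ± 0.10, SD with n = 3 and then SE). All 3 were lower on every CL1-5 array than on any CL1-0 array, and only the first was under the 40th percentile on all 3 CL1-5 arrays. The protein genes on both sides fell with it. NEBL, which encodes nebulette, an actin-binding protein, went from a mean of 298 to 11.3 (at least 14.9-fold lower), and SKIDA1 from 642 to 9.45 (at least 32.1-fold lower).

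MIR550A3HG was lower, from 195 ± 16.3 to 124 ± 30.8 (log2 fold change −0.65, adjusted p = 0.0188). MIR1-1HG, both probe sets of MIR570HG, MIR9-1HG and MIR4435-2HG did not pass the threshold. With the repeat number as a block, 3 of these 5 probe sets passed it (adjusted p = 0.0286 for 1 of MIR570HG, 0.0194 for MIR9-1HG, both lower, and 0.0482 for MIR4435-2HG, higher).

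Antisense probe sets counted 37 increases, 66 decreases and 81 that did not pass. The share called, 55.98%, was close to the 54.4% of the named probe sets above 50. The largest increase was FUT8-AS1, antisense to the gene of the fucosyltransferase that adds the core fucose of N-glycans. Its signal was 11.7, 11.3 and 13.1 in CL1-0 and 219.7, 261 and 264 in CL1-5, at least 12.4-fold higher (adjusted p = 1.61e-07). FUT8 itself gave 128, 129 and 156 against 1782, 1956 and 1604, a log2 fold change of 3.63 ± 0.12. The probe sets annotated to FUT8-AS1 and to FUT8 were thus both higher in every CL1-5 array than in any CL1-0 array. For FUT8-AS1 the rule for naming it required this. Which strand each probe set reads was not checked.

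PSMB8-AS1 lies between PSMB8, an immunoproteasome subunit gene, and TAP1, a gene of the peptide transporter that serves antigen presentation. It gave 8.21, 6.96 and 6.64 in CL1-0 and 129.6, 139 and 142 in CL1-5, at least 6.86-fold higher (adjusted p = 1.27e-07). PSMB8 gave 13.6, 16.7 and 14.9 against 2037, 2137 and 1412, at least 91.8-fold higher. TAP1 rose by 3.85 on the log2 scale, from a mean of 254 to 3761, so all 3 neighbours of this stretch of the major histocompatibility complex were higher in CL1-5.

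LOXL1-AS1, antisense to a lysyl oxidase gene whose enzyme cross-links elastin, gave 11.6, 9.31 and 9.39 in CL1-0 and 106, 170.4 and 172 in CL1-5, at least 7.30-fold higher (adjusted p = 5.91e-06). LOXL1 rose from 10.7 ± 1.71 to 53.1 ± 3.57 (SD, n = 3), at least 2.66-fold. CARD8-AS1 gave 25.7, 24.5 and 23.4 against 144, 152 and 171, a log2 fold change of 2.37 ± 0.10. CARD8, an inflammasome sensor gene, rose by 1.90. DSP-AS1 gave 27.4, 23.4 and 29.3 against 185, 136 and 148 (2.28 ± 0.14), and DSP, the gene of the desmosome protein desmoplakin, rose by 2.53 from 720.2 ± 41.3 to 4175 ± 149. In each of these 3 loci the antisense RNA and its partner rose together.

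NINJ2-AS1 rose from 12.4, 12.9 and 9.22 to 91.8, 97.7 and 105, at least 4.91-fold, and NINJ2 did not pass the filter on low values. DNAAF3-AS1 rose from 16.8 ± 4.13 to 118 ± 8.61 (log2 fold change 2.42), while DNAAF3, a gene needed to assemble ciliary motors, had 119.7 ± 3.49 and 125 ± 6.48 (0.05 ± 0.09, adjusted p = 0.701). The antisense RNA was higher on every CL1-5 array than on any CL1-0 array, which the rule for naming it required, while the signals of its partner overlapped between the lines.

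NR2F1-AS1 had the largest decrease among antisense genes. Its signal was 268, 237 and 187 in CL1-0 and 25.3, 19.8 and 21.5 in CL1-5, a log2 fold change of −3.02 ± 0.15 (adjusted p = 2.45e-06). NR2F1, an orphan nuclear receptor gene linked to tumour cell dormancy, gave 2027, 1926 and 2519.9 against 10.2, 8.38 and 10.2, at least 108-fold lower. All 3 CL1-5 arrays were under the 40th percentile for the receptor gene, and they lay near it for its antisense RNA.

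RARA-AS1 gave 244, 249.9 and 198 in CL1-0 and 28.2, 31.2 and 36.2 in CL1-5 (log2 fold change −2.62 ± 0.13, adjusted p = 2.50e-06). The retinoic acid receptor gene RARA had 68.0 ± 9.17 and 82.1 ± 5.23 (0.26 ± 0.12, adjusted p = 0.128). EP300-AS1 fell from 162 ± 12.5 to 40.1 ± 4.30 (−1.85) while EP300, a histone acetyltransferase gene, differed by 0.03 ± 0.22 (adjusted p = 0.938). ELOA-AS1 fell from 306 ± 46.1 to 89.4 ± 11.5 (−1.70) while ELOA, an elongation factor gene, differed by −0.14 ± 0.12 (adjusted p = 0.416). These 3 RNAs fell without a called change of the partner, which does not show that the partner was unchanged.

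SNTG2-AS1 fell at least 4.98-fold, from 118, 93.1 and 88.8 to 12.9, 16.0 and 15.6, and its partner did not pass the filter. ZNF232-AS1 gave 1189, 1129.6 and 934 in CL1-0 against 289, 260.3 and 244 in CL1-5 (−2.004 ± 0.12), and the zinc finger gene ZNF232 fell by 0.51. MSC-AS1 fell from 113 ± 5.43 to 23.8 ± 2.08 (−1.96) with MSC, a transcription factor gene (−1.54). ZBED3-AS1 fell from 106 ± 8.10 to 22.6 ± 2.95 (−1.94) with ZBED3 (−1.28), and ATP6V0E2-AS1 from 119 ± 2.74 to 27.8 ± 1.55 (−1.86) with ATP6V0E2, a proton pump subunit gene (−0.996). In these 4 pairs both genes fell. The other member probe sets of ZNF232-AS1 and ZBED3-AS1 fell too, by 1.15 and 0.76, the latter by less than ZBED3, so the order of the antisense RNA and its partner depends on the probe set there.

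HOXA-AS2 and HOXD-AS2, which come from clusters of homeobox genes and were picked after their values were seen, both fell. HOXA-AS2 had 108, 89.1 and 71.1 in CL1-0 and 38.1, 29.1 and 23.3 in CL1-5 (log2 fold change −1.38, adjusted p = 0.000596). HOXD-AS2 had 68.2, 73.1 and 90.0 against 31.6, 35.2 and 25.1 (−1.16, adjusted p = 0.000356). HOXB-AS1, the third member from such a cluster, had 86.2, 80.3 and 54.7 against 70.2, 79.9 and 74.8 (0.04, adjusted p = 0.861), and its lines overlapped. CCDC144NL-AS1 and LBX2-AS1, picked in the same way, rose. CCDC144NL-AS1 did so on all 4 of its member probe sets, by 0.77 to 1.88, and LBX2-AS1 from 79.1 ± 16.5 to 380.1 ± 51.9 (2.18). Of the 44 genes with several member probe sets, 0 had probe sets called in both directions in the main fit. With the repeat number as a block, MALAT1, which is among them, had 2 probe sets higher and 6 lower.

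The antisense RNAs and their partners were then set side by side. Of the 154 antisense genes, 123 had a partner probe set in the test, 14 had one that was too dim for it and 17 had none with a single symbol. Among the 123 partners, 28 were higher in CL1-5 and 37 lower, 52.8% called against 44.4% of all probe sets tested and 54.4% of the named ones above 50. In 43 pairs both members were called: 15 pairs were both higher, 24 both lower and 4 opposite. The share in the same direction was 39 of 43 (90.7%), and it ran from 84.5% (49 of 58 pairs, with the repeat number as a block) to 95.3% over the alternatives run. Antisense RNAs alone were called in 25 pairs, partners alone in 22, and neither in 33.

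For comparison, adjacent protein genes in RefSeq order went the same way in 1806 of 2768 pairs with both called (65.2%). Members and a neighbouring protein gene other than the partner did so in 37 of 64 (57.8%). These shares are descriptions over genes, which are not independent replicates, and their difference was not tested. All of the pairs share the same 6 arrays, and which strand each probe set reads rests on the platform annotation, since no probe sequence was used here.

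**Figure D3:**
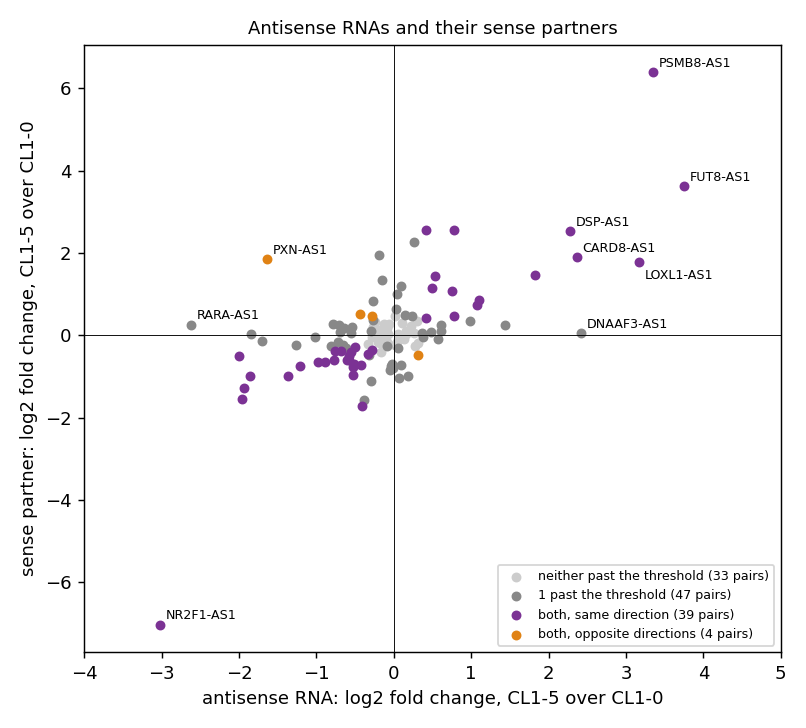
Log2 fold change (CL1-5 over CL1-0) of 123 antisense RNAs against that of their sense partners; each point is 1 pair, coloured by which of them passed limma's adjusted p of 0.05. The 39 purple pairs lie in the quadrants of like sign, with NR2F1-AS1 and PSMB8-AS1 farthest out, and 4 orange pairs have opposite signs.

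The 4 opposite pairs were chosen by that pattern. PXN-AS1 had the widest gap: it gave 315, 270.1 and 204 in CL1-0 and 80.4, 75.4 and 80.3 in CL1-5 (log2 fold change −1.64 ± 0.16, adjusted p = 8.54e-05). PXN, the gene of the focal adhesion protein paxillin, gave 71.7, 68.5 and 77.1 against 238, 271 and 333 (1.85 ± 0.14). Neither overlapped between lines, so every CL1-5 array was lower for the antisense RNA and higher for PXN than any CL1-0 array. For PXN-AS1 the rule for naming it required this. PITPNA-AS1 fell by 0.43 while PITPNA, a phospholipid transfer protein gene, rose by 0.51. WARS2-AS1 fell by 0.28 (adjusted p = 0.0314) while WARS2 rose by 0.48, and THAP7-AS1 rose by 0.31 (adjusted p = 0.0443) while THAP7 fell by 0.47. The WARS2-AS1 call was lost on leaving out any 1 of the 6 arrays (adjusted p from 0.0606 to 0.0907). The THAP7-AS1 call was lost on leaving out any array but CL1-0 repeat 1 (0.0467 to 0.141 over the 6).

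RefSeq start sites (GRCh38.p14) described the layout of 110 antisense genes, taking for each pair the closest listed starts: 76 faced each other, 33 were divergent and 1 lay on the same strand, while 44 pairs had no entry for 1 or both genes. Of the 28 tested pairs with divergent starts within 1000 bases, 13 had both called, and all 13 went the same way, 6 higher and 7 lower. The other 30 called pairs held the 4 opposite ones. These others mix facing pairs with pairs that had no entry, so they are not 1 layout. The difference between the groups was not tested.

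Promoter windows of 4 such divergent pairs are printed because both genes of each changed together, and the capitals show the short stretch between the starts that both share. Each window runs from 250 bases before to 50 bases after the listed start of the antisense RNA, on its own strand.
PSMB8-AS1, chr6:32843836-32844135, plus strand: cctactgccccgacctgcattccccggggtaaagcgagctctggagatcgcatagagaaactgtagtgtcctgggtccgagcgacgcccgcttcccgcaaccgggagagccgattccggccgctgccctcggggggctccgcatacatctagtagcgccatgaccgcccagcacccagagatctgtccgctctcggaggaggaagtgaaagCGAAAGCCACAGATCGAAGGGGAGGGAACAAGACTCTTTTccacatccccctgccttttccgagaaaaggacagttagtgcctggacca
DSP-AS1, chr6:7541375-7541674, minus strand: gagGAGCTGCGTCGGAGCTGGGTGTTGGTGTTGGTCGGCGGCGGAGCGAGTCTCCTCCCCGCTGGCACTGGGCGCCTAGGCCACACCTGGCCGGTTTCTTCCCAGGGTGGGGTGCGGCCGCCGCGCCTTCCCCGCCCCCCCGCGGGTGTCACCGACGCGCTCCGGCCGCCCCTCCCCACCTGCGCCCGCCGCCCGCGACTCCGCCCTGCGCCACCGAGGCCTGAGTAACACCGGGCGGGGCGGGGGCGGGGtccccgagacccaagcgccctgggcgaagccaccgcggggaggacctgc
ATP6V0E2-AS1, chr7:149873813-149874112, minus strand: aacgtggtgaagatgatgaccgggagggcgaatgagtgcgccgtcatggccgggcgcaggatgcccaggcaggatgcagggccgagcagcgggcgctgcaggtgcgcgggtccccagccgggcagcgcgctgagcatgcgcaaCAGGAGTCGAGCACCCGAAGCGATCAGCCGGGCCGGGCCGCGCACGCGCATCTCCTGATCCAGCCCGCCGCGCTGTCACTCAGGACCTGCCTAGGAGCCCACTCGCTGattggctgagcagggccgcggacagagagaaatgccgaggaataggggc
MNX1-AS1, chr7:157010607-157010906, plus strand: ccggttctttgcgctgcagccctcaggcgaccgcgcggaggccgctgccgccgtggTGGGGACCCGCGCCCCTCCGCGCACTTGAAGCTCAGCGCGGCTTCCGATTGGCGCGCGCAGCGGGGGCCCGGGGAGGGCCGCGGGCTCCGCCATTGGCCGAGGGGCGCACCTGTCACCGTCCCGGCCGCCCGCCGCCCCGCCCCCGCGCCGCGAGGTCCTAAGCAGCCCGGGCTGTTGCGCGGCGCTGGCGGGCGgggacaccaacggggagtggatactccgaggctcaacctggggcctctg
The starts lie 39 bases apart for PSMB8-AS1 and PSMB8, 247 for DSP-AS1 and DSP, 107 for ATP6V0E2-AS1 and ATP6V0E2, and 194 for MNX1-AS1 and MNX1, a motor neuron and pancreas transcription factor gene.

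MNX1-AS1, picked after its values were seen, gave 131, 134 and 109 in CL1-0 and 48.1, 42.0 and 41.5 in CL1-5 (log2 fold change −1.37 ± 0.12, adjusted p = 4.83e-05). MNX1 fell by 0.99 (adjusted p = 0.000663), from 139.8 ± 16.5 to 67.2 ± 9.86. ZEB1-AS1, whose start is divergent from that of the epithelial-mesenchymal regulator ZEB1, fell by 0.81 (adjusted p = 0.00230), and ZEB1 differed by −0.26 (adjusted p = 0.0537, and 0.00224 with the repeat number as a block).

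Partners also changed without a called change of the antisense RNA. HLA-F rose by 2.26 beside HLA-F-AS1 at 0.27 (adjusted p = 0.221), and TRAF3IP2, an adaptor gene of interleukin-17 signalling, by 1.95 beside TRAF3IP2-AS1 at −0.19 (adjusted p = 0.399). WAC fell by 1.58 beside WAC-AS1 at −0.38 (adjusted p = 0.0557, and 0.00044 with the repeat number as a block), and their starts are divergent and 425 bases apart. These genes too were picked after their values were seen.

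RefSeq promoter windows were found for 190 of the 237 member genes, and 6 motifs were searched on both strands in the window of each gene's first listed start. The interferon-stimulated response element was in 3.68% of member windows and 3.65% of all 27305 windows, the AP-1 site TGANTCA in 8.42% and 7.76%, and the hypoxia response core ACGTG in 27.9% and 21.6%. The CCAAT box CCAAT was in 41.1% and 35.7%, the TATA box TATAAA in 6.32% and 11.95%, and the GC box GGGCGG in 114 of the 190 and 44.6%. The median GC content was 63.3% in member windows, 58.3% in all and 51.3% in the 1012 windows of rule symbols at or under a signal of 50. Member windows thus had the higher median GC content and the larger share with a GC box, as a description with no test.

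In the PSMB8-AS1 window the interferon-stimulated response element covers positions 207 to 216, counted from 1 at the 5′ end, and reaches into the stretch between the starts. Of the 16 windows of genes with a called increase of at least 2-fold, 2 held this element (PSMB8-AS1 and LBX2-AS1), and of the 27 with such a decrease 1 did (HOXA-AS2). The hypoxia response core was in 4 of the 16 and 7 of the 27, MIR210HG among the first. The MIR210HG window (chr11:568408-568707, minus strand) is printed because miR-210 is known for induction in low oxygen; its capitals mark 1 hypoxia response core, 1 CCAAT box and 4 GC boxes on either strand.
MIR210HG: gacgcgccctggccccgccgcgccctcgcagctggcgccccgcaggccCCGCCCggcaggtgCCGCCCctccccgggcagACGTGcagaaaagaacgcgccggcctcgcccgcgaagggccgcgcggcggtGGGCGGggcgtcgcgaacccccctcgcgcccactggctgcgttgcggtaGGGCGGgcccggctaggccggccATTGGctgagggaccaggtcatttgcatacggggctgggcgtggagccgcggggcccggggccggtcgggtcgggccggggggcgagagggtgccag
No factor's binding was measured here, and a match of letters is not a site.

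MALAT1 differed from the other members in how its 12 probe sets varied between repeats. On its brightest probe set the signal was 889, 867 and 5129 in CL1-0 and 845, 867 and 3424 in CL1-5, a log2 fold change of −0.22 ± 0.78 (adjusted p = 0.852). Repeat 3 of each line was far above repeats 1 and 2, and the lines overlapped. For 8 of the 12 probe sets, repeat 3 was more than 1.5 times the mean of repeats 1 and 2 in both lines, with ratios up to 5.84 in CL1-0 and 6.59 in CL1-5. This held for 4 of the other 293 members (1.37%) and for 2.03% of the named probe sets above 50. Repeat 3 is also the repeat with the highest 3′ to 5′ ratio of ACTB in both lines, and the part of that in the MALAT1 signal was not tested.

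Between the lines, 1 of the 12 MALAT1 probe sets passed the threshold, with 119.9 ± 12.6 in CL1-0 and 74.9 ± 9.23 in CL1-5 (log2 fold change −0.64, adjusted p = 0.00439). Its suffix marks probes that also match other sequences. Most of the 12 probe sets carry the suffix x_at, so that limit is not particular to this one, while the brightest carries s_at. Which other sequences their probes match was not checked. The 12 fold changes ran from −0.75 to 0.37. With the repeat number as a block, 8 passed, 6 lower and 2 higher in CL1-5, so the probe sets of this gene did not share a direction.

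**Figure D4:**
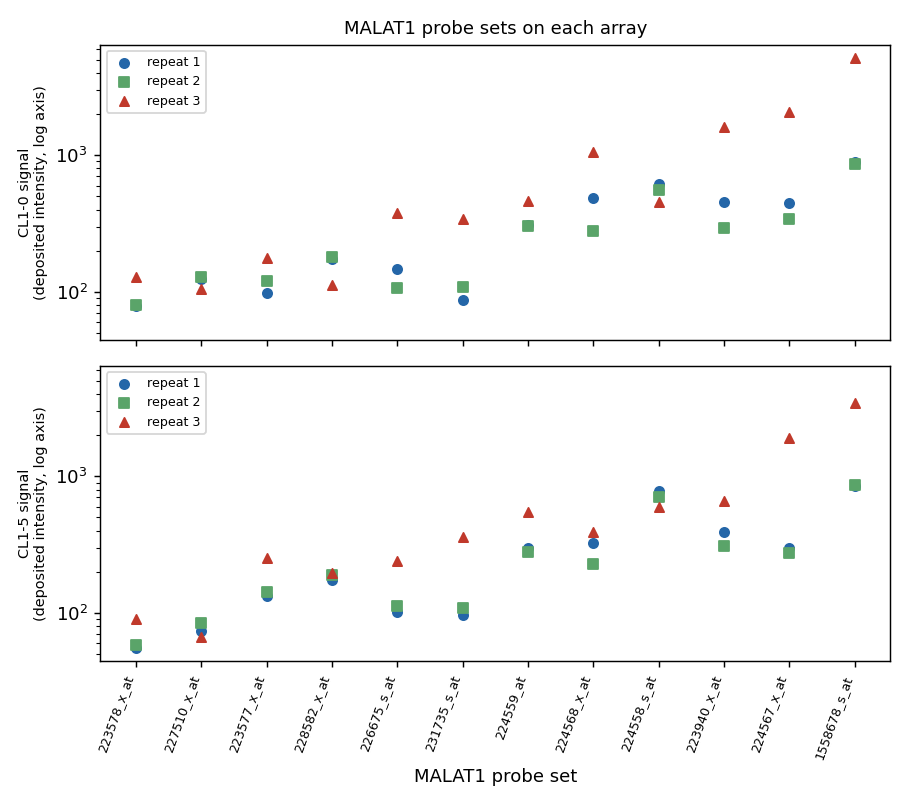
Signal (log axis) of the 12 MALAT1 probe sets, ordered by mean, on the 3 CL1-0 arrays (upper panel) and 3 CL1-5 arrays (lower panel); each marker is 1 repeat. Repeat 3 (red triangles) lies above the others for most probe sets in both panels, up to 5129 in CL1-0 and 3424 in CL1-5 on the brightest.

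The members with the highest mean signals are described next. EPB41L4A-AS1 gave 2824, 2873 and 2243 in CL1-0 and 2308, 2337 and 2151 in CL1-5 (log2 fold change −0.22 ± 0.10, adjusted p = 0.138, and 0.00463 with the repeat number as a block). OIP5-AS1, also known as cyrano, fell by 0.29, from 1237 ± 54.5 to 1012 ± 5.89 (adjusted p = 0.0124), and its partner OIP5 by 0.36. Of the other member probe sets of OIP5-AS1, 1 fell by 0.61 and 1 did not pass (−0.16, adjusted p = 0.251). Leaving out CL1-0 repeat 1 or 2 ended the OIP5 call (adjusted p = 0.0588 and 0.0503). PRR34-AS1 fell by 0.55, from 1026 ± 95.6 to 698 ± 23.2. FGD5-AS1 rose by 0.37, from 977 ± 129 to 1259.7 ± 75.8 (adjusted p = 0.0252), while its other member probe set had a log2 fold change of −0.11 (adjusted p = 0.405). Its call was lost without CL1-0 repeat 1 (0.0744), CL1-0 repeat 2 (0.0909), CL1-5 repeat 1 (0.0578) or CL1-5 repeat 2 (0.100).

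The other RNAs named by the rule had no member. NEAT1, the scaffold of paraspeckles, had 9 probe sets and H19, an imprinted RNA, had 2, all with several symbols. MEG3, another imprinted RNA, had 10 probe sets with a highest mean signal of 43.3, PVT1, the neighbour of MYC, had 1 with a single symbol at 35.3, and HOTAIR, from the HOXC cluster, had 1 at 6.33.

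Protein genes that work with such RNAs were counted from fixed lists, against the 44.4% called among all probe sets tested and 54.4% of the named ones above 50. Among 14 paraspeckle protein genes, 3 were higher and 5 lower (median log2 fold change −0.20). More of them passed with the repeat number as a block, which called 71.8% of the named probe sets above 50. NUDT21, a cleavage factor subunit, rose by 1.46, SMARCA4, a chromatin remodeller, by 1.07 and PSPC1 by 0.57, while HNRNPH3 fell by 0.90. Of 20 genes of the nuclear RNA exosome, which degrades many noncoding RNAs, and its targeting complexes, 4 were higher and 5 lower (median −0.17). The core subunits EXOSC8 and EXOSC6 fell by 1.53 and 1.35, the helicase MTREX by 1.23 and the adaptor ZCCHC7 by 0.97, while the core subunit EXOSC5 rose by 0.94 and RBM7, of a targeting complex, by 0.92, this last pair being picked after its values were seen. With the repeat number as a block, 16 of the 20 passed the threshold. That fit called 58.4% of all probe sets tested and 71.8% of the named ones above 50.

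Of 11 genes of Polycomb repressive complex 2, which methylates histone H3 and binds many RNAs, 6 were higher and 4 lower (median 0.42). The cofactor JARID2 rose by 1.72, and the methyltransferase EZH2 fell by 1.27, the cofactor AEBP2 by 1.14. Of 12 microRNA processing genes, 3 were higher and 3 lower (median −0.04), and 11 passed with the repeat number as a block, which called 71.8% of the named probe sets above 50. DROSHA, the nuclease that frees hairpins from host RNAs, rose by 0.70. DICER1, which cuts the hairpins, fell by 1.16 (adjusted p = 0.0324), and this call was lost without CL1-0 repeat 1 (0.0628) or repeat 3 (0.0694) and without CL1-5 repeat 1 (0.102) or repeat 2 (0.111). The count fell to 3 without CL1-0 repeat 1 and likewise without CL1-5 repeat 2.

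Among 10 protein genes beside the imprinted, HOX and cancer-linked RNAs of the rule, 3 were higher and 6 lower (median −0.74). The cell cycle inhibitor genes CDKN2A and CDKN2B fell at least 11.9-fold and at least 2.85-fold, and HOXC10 fell by 1.84 on the log2 scale, while HOXC11 rose by 1.18. Of 22 listed host RNAs of small nucleolar RNAs only 5 were tested, so the counts do not cover the class. Among the 5, SNHG17 alone passed, from 1213 ± 74.9 to 479 ± 13.5 (log2 fold change −1.33), and with the repeat number as a block 2 passed. From 41 symbols listed for other named long noncoding RNAs, 23 genes were tested, with 2 higher and 9 lower (median −0.22). More of them passed with the repeat number as a block, which called 71.8% of the named probe sets above 50. DLEU1 fell by 3.25, EMX2OS by 1.81 and DANCR by 1.53, and HCG4 of the major histocompatibility complex rose at least 4.08-fold.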

How the data were processed

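Total RNA of 6 cultures (3 biological repeats of CL1-0 and 3 of CL1-5, per the labels) was hybridised to 1 array each. The deposited values are linear intensity per probe set, and the submitters' processing notes name MAS5 without a version; later steps are not given, and no detection calls were used. The constant 6.85 was added before log2. Probe sets above their array's 40th percentile on at least 3 of 6 arrays were tested with limma 3.58.1 (R 4.3.3; lmFit, eBayes with trend), after a test on simulated data. Symbols come from the platform annotation, which can be old; by gene ID 302 of the 305 members matched RefSeq. Per gene, the brightest probe set without suffix x_at was used. The text names, by rule, the 12 member genes that rose most and the 12 that fell most among calls whose lines do not overlap, the 5 brightest genes, the RNAs of the rule, sense partners, and up to 4 called genes per list. Members and lists were chosen with earlier results of these data known. Same-numbered repeats deviated together (correlations 0.52, 0.43 and 0.72), but repeats 1 and 2 of unlike number did so too (0.38 and 0.27). Repeat 3 against repeats 1 and 2 of the other line had −0.47 to −0.62, so the correlations mainly set repeat 3 apart. The main fit left the repeat number out, and the block was run as an alternative. Blocked values are given where they change the call of a gene named, and blocked counts for some of the lists only. The number of arrays limits the precision. Alternatives covered the constant, filter, scaling, prior, array weights, threshold, block and each array left out.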

Additional observations from a re-analysis of the deposited data

How the results depend on the processing

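With the repeat number as a block, 197 of the 305 members passed the threshold (66 higher, 131 lower) against 156, and 0 of the 156 calls were lost. That fit called 58.4% of all probe sets tested and 71.8% of the named ones above 50. Leaving out 1 array at a time gave 135 to 155 members called, 55 to 66 sense partners and 12365 to 15049 for probe sets differing, CL1-5 against CL1-0. With 1 probe set per gene, 7672 differed. Asking also for 2-fold, 4893 probe sets differed, as did 62 members, 24 sense partners, 62 neighbours, 5 other long noncoding RNAs, 2 paraspeckle genes, 3 exosome genes, 3 Polycomb genes and 1 microRNA processing gene. Among the 135 members with a mean above 100, 82 were called, and no share over all probe sets under that cut was taken. Of the small nucleolar RNA hosts, 3 passed with array weights, 2 with quantile scaling and 2 with the block. The block gave 16 of 20 exosome genes and 11 of 12 microRNA processing genes, where 71.8% of the named probe sets above 50 passed. It also raised the counts of the paraspeckle, Polycomb and other long noncoding RNA lists. Without the block, 2 microRNA processing genes passed at an adjusted p under 0.01, and 3 to 6 passed the threshold with 1 array left out. Of 125 genes named or paired, 5 changed sign under an alternative run. With 1 array left out, the log2 fold change of MALAT1 ran from −0.88 to 0.63. That of partner genes ran from −0.14 to 0.14 for EPB41L4A (−0.15 with array weights), from −0.051 to 0.21 for FGD5, from −0.024 to 0.13 for PRR34 and from −0.11 to 0.26 for EP300. The cause was not tested. Beside the changes given here and in the report, the block changed no call of a gene named.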
